A study of Homo sapiens with 18 samples.

Results

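The 10 genes described here make up the core of the mammalian circadian clock: the activators CLOCK and BMAL1 (ARNTL in GENCODE 29), the period genes PER1, PER2 and PER3, the cryptochromes CRY1 and CRY2, the REV-ERB receptors NR1D1 and NR1D2, and the E-box repressor BHLHE40. They were chosen by name, and their levels are sums over the transcripts that GENCODE 29 assigns to each gene. All 10 passed the filter on low counts, among the 15530 genes tested of 23942 with a count. The samples were HEK293 cells, a human embryonic kidney line, in 3 genotypes: wildtype, cells in which CRISPR-Cas9 had removed Gαs (Gαs KO), and cells in which it had removed β-arrestin1 and β-arrestin2 (β-arrestin1/2 KO). Every group, controls included, was transiently transfected with the β2-adrenergic receptor (β2AR), serum starved overnight and, 48 h after transfection, given vehicle (basal) or 1 μM of the β-adrenergic agonist isoproterenol for 1 h. Each of the 6 groups had 3 biological replicates, 18 libraries in all. Each genotype is 1 cell line compared with the parental line, so a basal difference between lines cannot be told apart from other differences between those lines.

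CLOCK and BMAL1 form a heterodimer that binds E-boxes and switches on the PER, CRY, NR1D and BHLHE40 genes. PER and CRY proteins return to block that heterodimer, NR1D1 and NR1D2 repress BMAL1, and BHLHE40 competes for the same E-boxes. A pulse of cAMP can reset this loop: Gαs activates adenylyl cyclase, protein kinase A phosphorylates CREB, and CREB bound to cAMP response elements (CREs) acts on PER1, which is known as an immediate-early clock gene. A question for these libraries is therefore whether PER1 responded to isoproterenol at 1 h, and whether it did so without Gαs or without β-arrestins.

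The sequence next to the PER1 start site is shown because the cAMP route reaches PER1 through its promoter, and the BHLHE40 site because BHLHE40 was the one member called in a response. Both come from the RefSeq promoter windows of GRCh38.p14, and capitals mark the E-box CACGTG. The PER1 stretch lies on the minus strand at chr17:8152436-8152654 and ends where the first exon of the main PER1 transcript begins. The BHLHE40 stretch lies on the plus strand at chr3:4979187-4979216, inside the first exon of the main BHLHE40 transcript of GENCODE 29.
PER1: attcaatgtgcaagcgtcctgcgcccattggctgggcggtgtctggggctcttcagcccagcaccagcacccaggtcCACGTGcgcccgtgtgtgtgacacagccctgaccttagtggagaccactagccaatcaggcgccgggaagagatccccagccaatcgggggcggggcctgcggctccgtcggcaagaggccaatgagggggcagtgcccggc
BHLHE40: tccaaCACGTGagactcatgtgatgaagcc

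Motifs were searched as exact letters on both strands of windows of 300 bases, 250 before and 50 after each RefSeq start site. The E-box lay 173 bases before the RefSeq start of PER1 and 245 bases before that of BHLHE40. It was also found in 1 of the NR1D2 windows and is held by 7.26% of all 35116 windows of this length. The full CRE (TGACGTCA) was in none of the members' windows and is held by 1.85% of all windows. The shorter CRE core TGACG, which the full CRE contains, was in windows of PER2, CRY1, CRY2, NR1D2 and CLOCK and is held by 24.6% of all windows. The E-box-like CACGTT was in windows of PER2, CRY1, CRY2, NR1D1 and CLOCK (5.34% of all windows), and the ROR core AGGTCA in windows of PER1, CRY2 and BMAL1 (13.8%). PER3, CRY2, NR1D2, CLOCK and BMAL1 had 2 windows each, and a gene is named if any of its windows held the motif. The shares are per single window, so they are not a background for counts of genes. Each window is short, so sites farther from the start lie outside it.

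The libraries held 17908597 to 25019834 estimated counts (median 20419460). Library mean GC content was 49.14% to 50.09% in 17 of the 18 libraries and 52.48% in wildtype basal replicate 1. Counts of that library differed from those of its fellow replicates by a chi-square per degree of freedom of 131.8 and 103.6, against 3.99 to 13.6 for the other replicate pairs. In it, genes with a GC content above 60% stood a median 0.71 above the mean of replicates 2 and 3 on the log2 scale, and genes of at most 40% stood 1.03 below. The clock genes spread over that range, from NR1D2 (38.6% GC, -0.85) and CLOCK (40.8%, -0.77) at the low end to PER1 (62.7% GC, 0.73) at the high end. Calls that use the wildtype basal group are therefore also given without this library. Levels of a gene across libraries are given in CPM, counts scaled to a common library size with edgeR's TMM factors. GNAS, which encodes Gαs, stood at 61.3 to 71.3 CPM in the 6 Gαs KO libraries and at 1066 to 1752 in the others. ARRB2 stood at 15.2 to 23.0 in the β-arrestin1/2 KO libraries and at 71.6 or more elsewhere, whereas ARRB1 stood at 37.9 to 43.5 there, a range that overlapped its wildtype range of 38.4 to 65.3. A transcript level does not show whether a disrupted gene still gives protein. Of the HEK293 markers, VIM (618.4 to 1509 CPM) and NEFL (86.9 to 344.2) were high in every library. PAX2 (0.900 to 3.56) and NEFM (0.757 to 2.47) were low, and LHX1 ranged from 0 to 7.09. Of the markers of other cells, PTPRC, PECAM1 and ALB had at most 12 counts in any library. GFAP (astrocytes) had 17 to 69.8 counts, DES (muscle) had 3 to 34, and COL1A1, a collagen gene of fibroblasts, had 360 to 962.

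**Figure D1:**
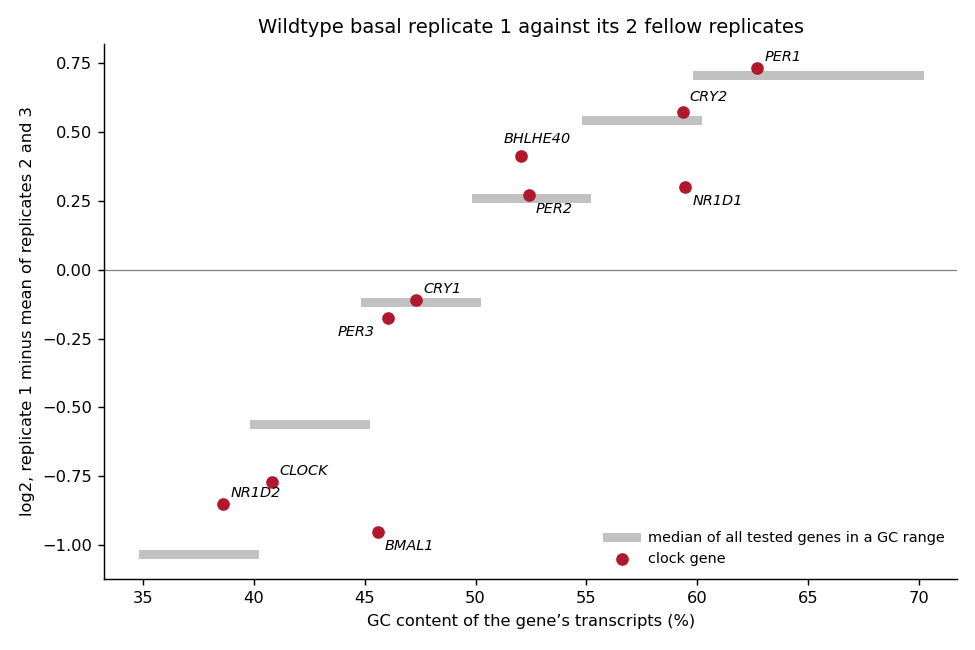
Change in wildtype basal replicate 1 (log2 CPM minus the mean of replicates 2 and 3) against the GC content of each gene's transcripts in percent, with the clock genes as points and grey bars for the median of all tested genes in each GC range (the outer ranges are drawn to 35 and 70). PER1 at 62.7% GC stood 0.73 above its fellow replicates, and NR1D2, CLOCK and BMAL1 stood 0.77 to 0.95 below.

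PER1, a repressor of the CLOCK-BMAL1 heterodimer, was the member that the question names. In wildtype cells PER1 stood at 91.6, 49.9 and 60.9 in basal replicates 1 to 3 and at 85.3, 72.8 and 79.0 after isoproterenol. The basal value of replicate 1 lay above all 3 stimulated values, and the basal values of replicates 2 and 3 lay below all 3. PER1 in β-arrestin1/2 KO cells stood at 32.5, 31.0 and 30.2 in the basal state and at 49.3, 40.1 and 47.9 after isoproterenol, with no overlap. In Gαs KO cells it stood at 39.4, 36.3 and 37.0 and then at 37.8, 36.3 and 35.7, and the groups overlapped.

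The PER1 response to isoproterenol was 0.23 (SE 0.16) on the log2 scale in wildtype cells (edgeR's quasi-likelihood test, Benjamini-Hochberg adjusted p = 0.57), 0.55 (SE 0.16) in β-arrestin1/2 KO cells (edgeR adjusted p = 0.17) and -0.04 (SE 0.16) in Gαs KO cells (edgeR adjusted p = 1). None of these passed the threshold of 0.05 in this fit, which used all 18 libraries and no offsets for GC content and length. Without wildtype basal replicate 1, PER1 rose by 0.51 (SE 0.09) in wildtype cells (edgeR adjusted p = 0.0089) and by 0.55 (SE 0.09) in β-arrestin1/2 KO cells (edgeR adjusted p = 0.00068), while the Gαs KO value was -0.03 (SE 0.09). That library belongs to no β-arrestin1/2 KO group, and it enters that comparison through the estimate of spread that all groups share. With offsets for GC content and length and all libraries kept, the responses were 0.41 in wildtype cells (edgeR adjusted p = 0.0063) and 0.71 in β-arrestin1/2 KO cells (edgeR adjusted p = 1.6e-05).

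Differences between the responses were tested directly. The PER1 response in β-arrestin1/2 KO cells exceeded that in Gαs KO cells by 0.59 (SE 0.22) with all libraries (edgeR adjusted p = 0.81) and by 0.58 (SE 0.12) without wildtype basal replicate 1 (edgeR adjusted p = 0.017). With the GC and length offsets and all libraries kept it was 0.74 and passed. The Gαs KO response stood below the wildtype response by -0.26 (SE 0.22, edgeR adjusted p = 0.89), or by -0.55 (SE 0.13, edgeR adjusted p = 0.10) without that library. The β-arrestin1/2 KO response minus the wildtype response was 0.32 (SE 0.22) with it and 0.04 (SE 0.13) without it, and neither passed the test (edgeR adjusted p = 1 and 0.90). An exact permutation test of 3 against 3 libraries cannot give a two-sided p under 0.1, so the calls rest on the fit across all genes.

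The 6 group means of PER1 ran from 79.0 ± 6.26 CPM (SD, n = 3) in stimulated wildtype cells, through 67.4 ± 21.6 in basal wildtype, 45.8 ± 4.99 in stimulated β-arrestin1/2 KO, 37.6 ± 1.64 in basal Gαs KO and 36.6 ± 1.096 in stimulated Gαs KO, to 31.2 ± 1.13 in basal β-arrestin1/2 KO cells. The first 2 neighbours in that order overlapped, as did the 2 Gαs KO groups. Per length, in TPM (counts divided by transcript length and scaled to the same sum in each library), PER1 stood at 35.7, 22.5 and 28.9 in basal wildtype libraries and at 48.2, 45.1 and 47.3 after isoproterenol. On that scale the wildtype groups did not overlap, and their ratio was 1.61 against 1.17 in CPM. TPM gives more weight to reads assigned to short transcripts, and the estimates for those were small. PER1-204, a retained-intron transcript of 626 bases, had a mean of 0.161 CPM in basal and 0.654 in stimulated wildtype libraries. PER1-219 (461 bases) had 0.191 and 1.17, with 0 counts in stimulated replicate 1, and PER1-203 (589 bases) had 0.377 and 0.916. The part of these transcripts in the gap between the 2 ratios was not tested.

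The 4707-base transcript PER1-201 carried 91.2% of the PER1 counts. In a fit over 61001 transcripts its response was 0.21 (SE 0.15) in wildtype, 0.52 (SE 0.15) in β-arrestin1/2 KO and -0.09 (SE 0.15) in Gαs KO cells (edgeR adjusted p = 0.83, 0.45 and 1). Salmon shares reads between transcripts of a gene, and also with an overlapping annotated gene: ENSG00000263620, a protein-coding entry on the same strand, overlaps PER1 by 5691 bases and had a mean of 74.6 counts per library.

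**Figure D2:**
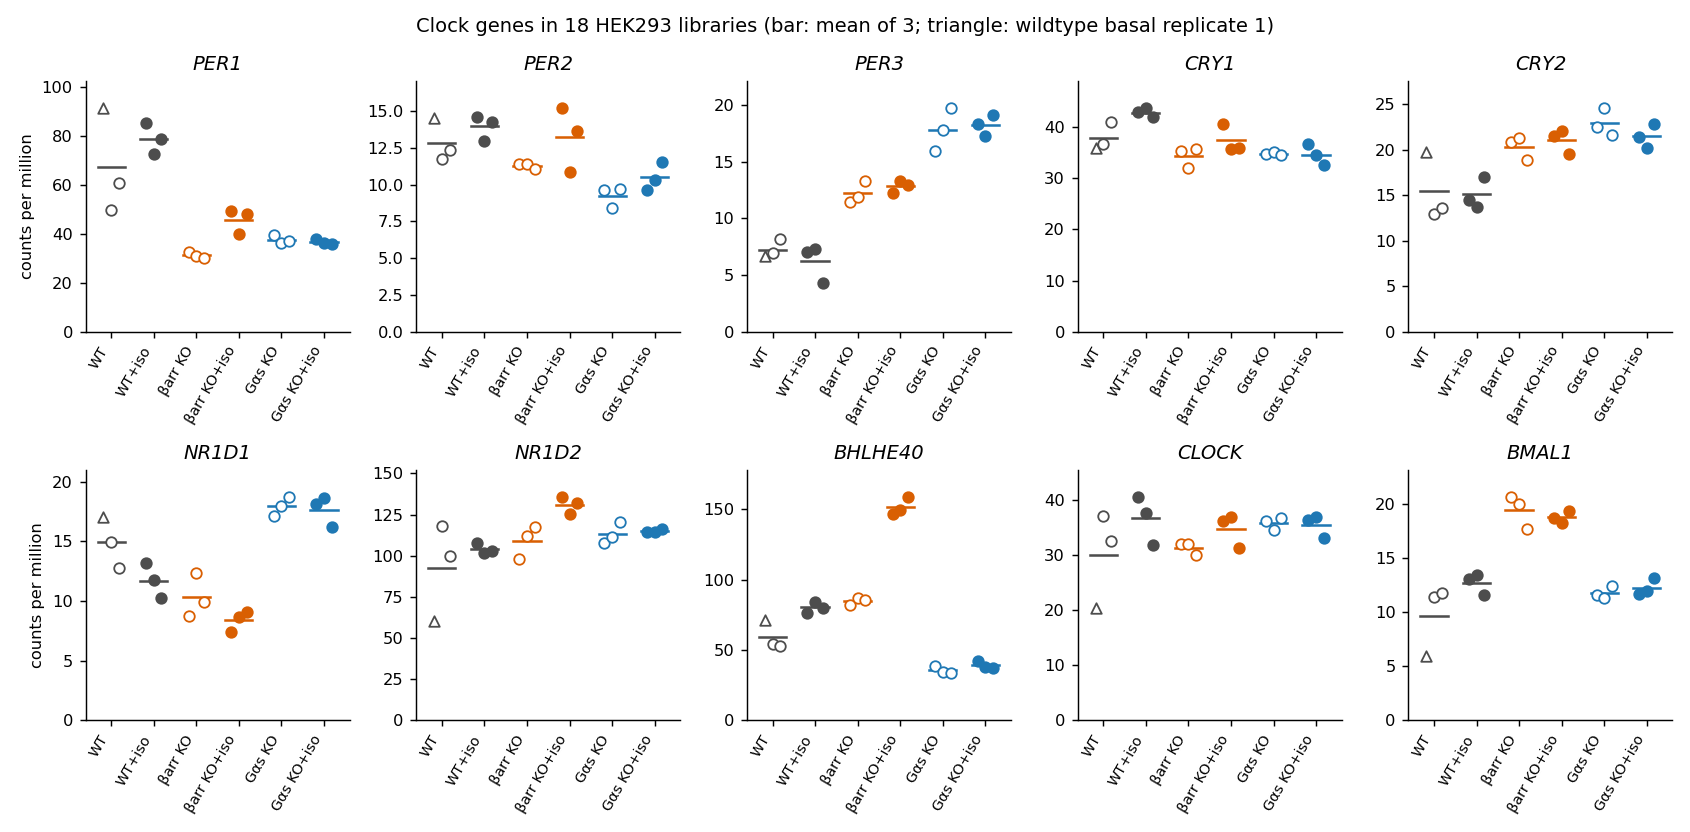
Level in CPM (linear axes from 0, a separate scale for each gene) of the 10 clock genes in all 18 libraries, open symbols for basal and filled symbols for isoproterenol, with bars at the mean of 3 libraries and a triangle for wildtype basal replicate 1. BHLHE40 in β-arrestin1/2 KO cells moved from 82.1 to 87.2 up to 146.4 to 158.9, while PER1 in wildtype cells overlapped because of the triangle at 91.6.

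BHLHE40 (also called DEC1), a basic helix-loop-helix repressor of E-box genes, rose in β-arrestin1/2 KO cells. It stood at 82.1, 87.2 and 85.4 CPM in basal β-arrestin1/2 KO libraries and at 146.4, 149.5 and 158.9 after isoproterenol. In wildtype cells it stood at 71.4, 54.0 and 53.1 and then at 76.5, 84.0 and 79.98. In Gαs KO cells it stood at 38.7, 34.01 and 33.6 and then at 41.9, 38.1 and 37.4. The stimulated libraries lay wholly above the basal ones except in Gαs KO cells, where the groups overlapped.

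The BHLHE40 response was 1.79-fold in β-arrestin1/2 KO cells, a log2 change of 0.84 (SE 0.10, edgeR adjusted p = 0.00013), and it passed the test in all alternatives run for that comparison. In wildtype cells the log2 value was 0.43 (SE 0.10, edgeR adjusted p = 0.10), and without wildtype basal replicate 1 it was 0.58 (SE 0.07, edgeR adjusted p = 5.7e-05). In Gαs KO cells it was 0.14 (SE 0.10, edgeR adjusted p = 1). The difference between the β-arrestin1/2 KO and Gαs KO responses, 0.69 (SE 0.14), passed with all libraries (edgeR adjusted p = 0.049) and without wildtype basal replicate 1 (0.68, SE 0.08, edgeR adjusted p = 9.5e-05). It missed the threshold under 6 of the alternatives that kept all libraries, with log2 values from 0.67 to 0.69, and in 15 of 18 fits with 1 library left out, all but those without a wildtype basal replicate (0.62 to 0.74). Gαs KO minus wildtype was -0.29 (edgeR adjusted p = 0.89) and, without that library, -0.43 (edgeR adjusted p = 0.046). β-arrestin1/2 KO minus wildtype was 0.41 (SE 0.14, edgeR adjusted p = 0.61) and did not pass. The transcript BHLHE40-201 held 98.5% of the gene's counts and rose by 0.85 in β-arrestin1/2 KO cells (edgeR adjusted p = 0.00018).

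**Figure D3:**
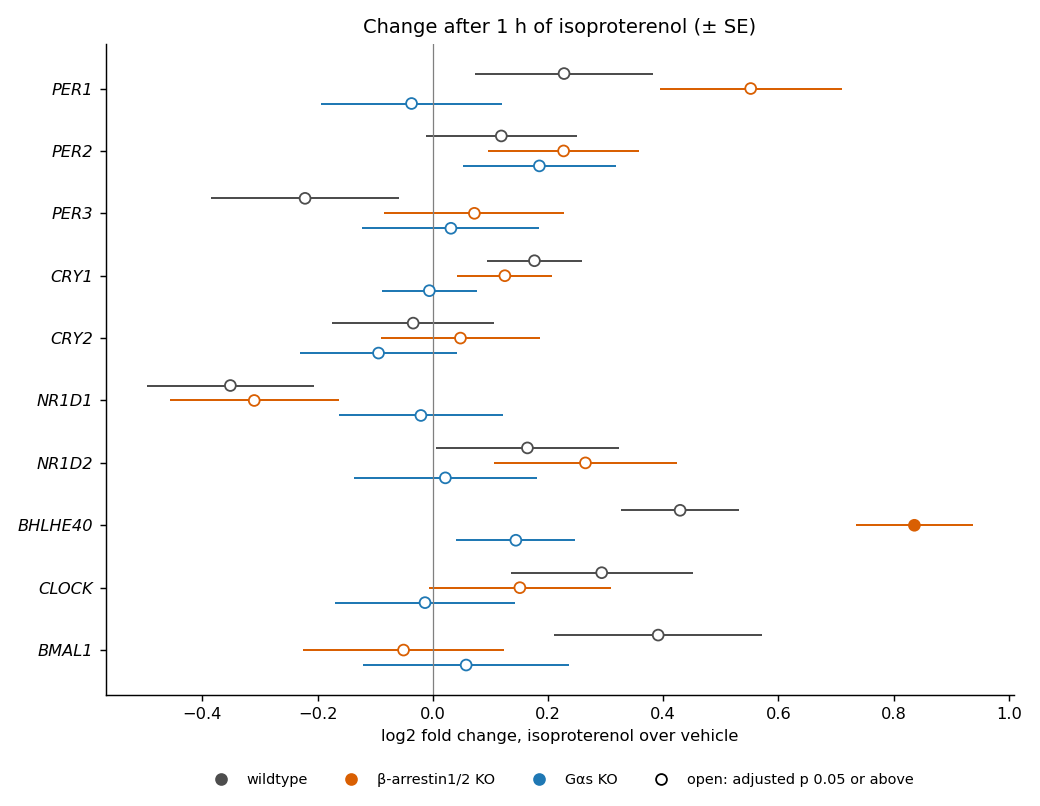
Change after 1 h of isoproterenol (log2 fold change over vehicle, horizontal axis, bars ± SE) for each clock gene in wildtype cells (grey), β-arrestin1/2 KO cells (orange) and Gαs KO cells (blue), with filled points for an edgeR adjusted p under 0.05. BHLHE40 in β-arrestin1/2 KO cells at 0.84 is the one filled point, and the 10 Gαs KO points lie between -0.09 and 0.18.

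Across the 10 genes, edgeR called 0 in wildtype cells, where 0.464% of all genes tested were called. There 4 members had an unadjusted p under 0.05, as did 1629 of all 15530 genes tested. In β-arrestin1/2 KO cells edgeR called 1, against 1.13% of all genes. There 2 members had an unadjusted p under 0.05, as did 1288 of all genes. In Gαs KO cells edgeR called 0, against 0.0% of all genes. There 0 members had an unadjusted p under 0.05, against 164 of all genes. DESeq2's Wald test called BHLHE40 alone, both for wildtype (1.19% of all genes) and for β-arrestin1/2 KO cells (1.84%), and 0 members for Gαs KO cells (0.0335%). Without wildtype basal replicate 1, edgeR called 2 members in wildtype cells (PER1 and BHLHE40, against 1.11% of all genes), 3 in β-arrestin1/2 KO cells (PER1, NR1D2 and BHLHE40, against 11.7%) and 0 in Gαs KO cells (against 0.0%). With the GC and length offsets, PER1 and BHLHE40 were called both for wildtype (1.46% of all genes) and for β-arrestin1/2 KO cells (2.43%), and 0 members for Gαs KO cells (0.0%). With the compared libraries alone, PER1, NR1D2 and BHLHE40 were called in β-arrestin1/2 KO cells (7.93% of all genes). No member was called in that setting in wildtype cells (13 of 14412 genes) or in Gαs KO cells (0 of 14757 genes). The stimulated libraries lay wholly above the basal ones for 2 members in wildtype cells (CRY1 and BHLHE40) and for 4 in β-arrestin1/2 KO cells (PER1, CRY1, NR1D2 and BHLHE40). Such separation was seen in 4.86% and 15.4% of all genes. No member showed it in Gαs KO cells, where 4.9% of all genes did. The members' median log2 change was 0.17 for wildtype, 0.14 for β-arrestin1/2 KO and 0.0078 for Gαs KO cells, and that of all genes was -0.0021, -0.0082 and -0.0011. For the differences in response, 0 members were called for β-arrestin1/2 KO minus wildtype (0.167% of all genes), 0 for Gαs KO minus wildtype (0.161%) and 1 for β-arrestin1/2 KO minus Gαs KO (0.406%). In the comparisons without a called member, 1 and 0 members had an unadjusted p under 0.05, against 864 and 719 of all 15530 genes tested. DESeq2 also called 0 in them, against 99 of 16014 and 63 of 19259 genes. Without wildtype basal replicate 1, 1 member was called for β-arrestin1/2 KO minus wildtype (NR1D2, against 8.24% of all genes), 1 for Gαs KO minus wildtype (BHLHE40, against 0.412%) and 2 for β-arrestin1/2 KO minus Gαs KO (PER1 and BHLHE40, against 2.62%). The same 2 were called for that difference with the offsets (0.914% of all genes) and with the compared libraries alone (3.73%).

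Among the other period genes, PER2, a partner of PER1 in the repressor complex, stood at 11.7 to 14.5 CPM in basal and 12.96 to 14.6 in stimulated wildtype libraries. Its responses were 0.12 for wildtype, 0.23 for β-arrestin1/2 KO and 0.18 for Gαs KO cells, each with an SE of 0.13. PER3, the third period gene, was among the least abundant members, with 79 counts in the poorest library. Its responses, in the same order, were -0.22 (SE 0.16), 0.07 (SE 0.16) and 0.03 (SE 0.15). None of these 6 responses passed the test with all libraries or without wildtype basal replicate 1.

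CRY1, the cryptochrome that holds CLOCK-BMAL1 in its repressed state, stood at 36.01, 36.8 and 41.1 in basal wildtype libraries and at 43.0, 43.8 and 42.0 after isoproterenol. These groups were separate, but the log2 change of 0.18 (SE 0.08) did not pass (edgeR adjusted p = 0.47), nor did 0.14 without wildtype basal replicate 1. For β-arrestin1/2 KO cells its basal values of 31.96 to 35.7 and stimulated values of 35.8 to 40.6 were separated by a narrow gap, with a log2 change of 0.12 (SE 0.08). CRY2, the other cryptochrome, gave -0.03, 0.05 and -0.09 in that order of lines, each with an SE of 0.14, and 0.19 in wildtype cells without basal replicate 1.

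NR1D1 (REV-ERBα), a haem-binding repressor of BMAL1, was lower on average after isoproterenol in both lines that have Gαs, without passing the test. It stood at 17.1, 14.96 and 12.8 in basal wildtype and at 13.2, 11.7 and 10.3 in stimulated wildtype libraries, and the ranges overlapped. Its responses were -0.35 (SE 0.14) in wildtype, -0.31 (SE 0.15) in β-arrestin1/2 KO and -0.02 (SE 0.14) in Gαs KO cells (edgeR adjusted p = 0.43, 0.60 and 1), and the wildtype value without basal replicate 1 was -0.24 and did not pass. NR1D1 has a GC content of 59.5% and stood 0.30 above its fellow replicates in wildtype basal replicate 1. The β-arrestin1/2 KO libraries had a lower mean GC content after isoproterenol, as given below for NR1D2. With offsets for GC content and length the NR1D1 responses did not pass either. The part of GC content in these values was not tested further. NR1D1 overlaps THRA on the opposite strand by 1081 bases, and THRA had a mean of 1305 counts per library, so reads of the shared stretch could be split between them where strand was not used.

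NR1D2 (REV-ERBβ), its paralogue, stood at 97.8, 111.8 and 117.6 in basal and at 135.9, 125.3 and 131.9 in stimulated β-arrestin1/2 KO libraries, which did not overlap. The log2 change there was 0.26 (SE 0.16, edgeR adjusted p = 0.71), and without wildtype basal replicate 1 it was 0.26 (SE 0.07, edgeR adjusted p = 0.016). With offsets for GC content and length it was 0.14 and did not pass (edgeR adjusted p = 0.34). The mean GC content of the β-arrestin1/2 KO libraries was 49.75% to 50.09% in the basal state and 49.28% to 49.42% after isoproterenol. The part of GC content in the NR1D2 value was not tested beyond these offsets.

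CLOCK and BMAL1, the activators, stood lowest in wildtype basal replicate 1. CLOCK had 20.3, 37.0 and 32.5 CPM in basal and 40.6, 37.5 and 31.9 in stimulated wildtype libraries, a log2 change of 0.29 (SE 0.16) that became 0.08 (SE 0.10) without that replicate. BMAL1 had 5.95, 11.4 and 11.8 in basal and 13.1, 13.4 and 11.6 in stimulated wildtype libraries, a log2 change of 0.39 (SE 0.18) that became 0.13 (SE 0.10). CLOCK gave 0.15 and BMAL1 gave -0.05 in β-arrestin1/2 KO cells, and in Gαs KO cells they gave -0.01 and 0.06. None of these passed the test. CLOCK overlaps TMEM165, on the opposite strand, by 25495 bases, which include introns.

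**Figure D4:**
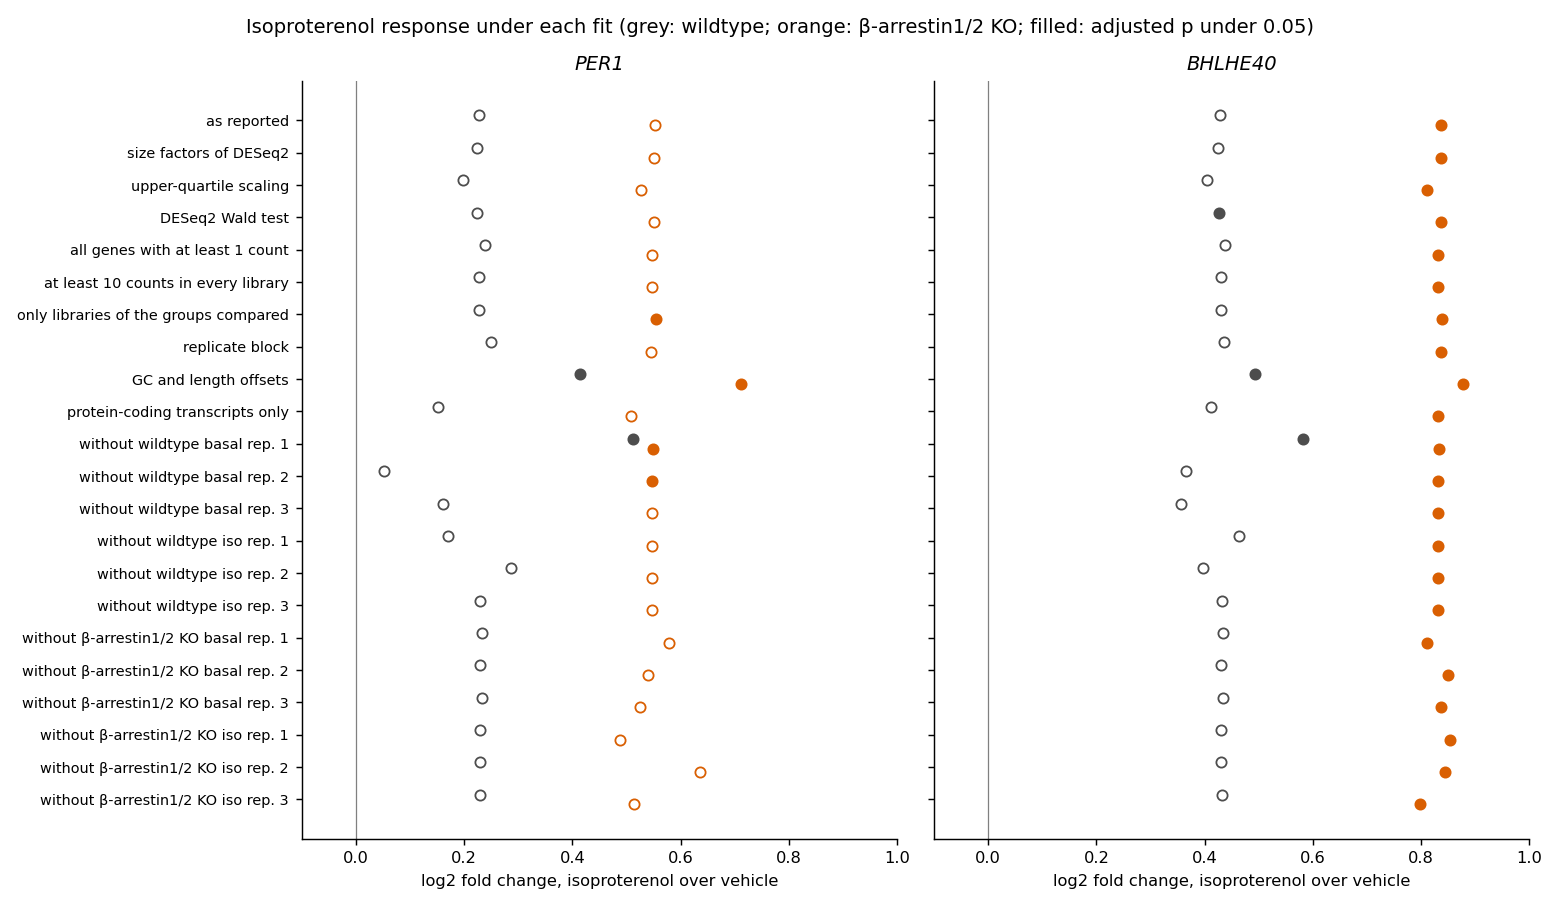
Isoproterenol response (log2 fold change, horizontal axis) of PER1 and BHLHE40 in wildtype (grey) and β-arrestin1/2 KO cells (orange) under each fit drawn, filled where the adjusted p was under 0.05. The fit with offsets and replicate block together and the fits without a Gαs KO library are not drawn. The wildtype PER1 value ran from 0.05 without wildtype basal replicate 2 to 0.51 without wildtype basal replicate 1, while BHLHE40 in β-arrestin1/2 KO cells stayed filled between 0.80 and 0.88.

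The vehicle-treated lines were then compared with each other. Of the 10 members, 6 were called between β-arrestin1/2 KO and wildtype cells (33.5% of all genes), 4 higher (15.7%) and 2 lower (17.9%). Between Gαs KO and wildtype cells 5 were called (31.3%), 2 higher (14.2%) and 3 lower (17.1%). For β-arrestin1/2 KO against Gαs KO cells 4 were called (26.2%), 2 higher (13.8%) and 2 lower (12.4%). Without wildtype basal replicate 1 the counts were 6, 6 and 5, against 46.7%, 45.9% and 45.2% of all genes. With the compared libraries alone they were 2, 2 and 7, against 10.3%, 10.8% and 48.2% of all genes, and with the GC and length offsets and a replicate block the last was 7, against 42.9%. The comparisons share libraries pairwise, so their values are not independent.

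PER1 was lower in both knockout lines. Its log2 difference from wildtype was -1.11 (SE 0.16) in β-arrestin1/2 KO cells (edgeR adjusted p = 5.9e-05) and -0.84 (SE 0.16) in Gαs KO cells (edgeR adjusted p = 0.00066). Without wildtype basal replicate 1, where PER1 was highest, these became -0.82 (SE 0.10, edgeR adjusted p = 2.0e-06) and -0.56 (SE 0.09, edgeR adjusted p = 0.00011). Even the lowest basal wildtype value of 49.9 lay above all knockout basal values. PER2 was lower in Gαs KO cells, at 8.40 to 9.69 CPM, with a log2 difference of -0.48 (SE 0.13, edgeR adjusted p = 0.011), or -0.38 without that replicate (edgeR adjusted p = 0.027). The PER2 call was lost without basal replicate 2 of the Gαs KO cells. With the compared libraries alone, PER1 and PER2 were not called for Gαs KO against wildtype cells.

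PER3 was higher in both knockout lines. It stood at 6.64, 6.93 and 8.13 CPM in basal wildtype libraries, at 11.4, 11.9 and 13.3 in β-arrestin1/2 KO and at 15.9, 17.8 and 19.7 in Gαs KO libraries, and the 3 ranges were separate. The log2 difference from wildtype was 0.75 (SE 0.16, edgeR adjusted p = 0.0017) in β-arrestin1/2 KO and 1.30 (SE 0.16, edgeR adjusted p = 1.4e-05) in Gαs KO cells, or 0.70 and 1.24 without wildtype basal replicate 1, and both still passed. PER1 and PER3 thus stood on opposite sides of wildtype in each knockout line. CRY2 was also higher in both, by 0.40 (SE 0.14, edgeR adjusted p = 0.037) and 0.57 (SE 0.14, edgeR adjusted p = 0.0051), and by 0.62 and 0.78 without wildtype basal replicate 1. The CRY2 call in β-arrestin1/2 KO cells was lost in 4 of 18 fits with 1 library left out, down to 0.29 without wildtype basal replicate 2, and also without replicate 3 of that group or without basal replicate 1 or 2 of the β-arrestin1/2 KO cells. It was lost too with protein-coding transcripts alone (0.36) and with the compared libraries alone (0.40). The CRY2 call in Gαs KO cells was also lost with the compared libraries alone.

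BHLHE40 went opposite ways in the knockout lines. Against wildtype it was higher by 0.51 (SE 0.10, edgeR adjusted p = 0.0010) in β-arrestin1/2 KO cells and lower by -0.75 (SE 0.10, edgeR adjusted p = 4.3e-05) in Gαs KO cells. These were 0.67 and -0.60 without wildtype basal replicate 1, and both passed. The difference between those lines was 1.26 (SE 0.10, edgeR adjusted p = 1.5e-07), or 2.40-fold. NR1D1 was lower in β-arrestin1/2 KO cells than in wildtype by -0.53 (SE 0.15, edgeR adjusted p = 0.010, or -0.41 and 0.027 without that replicate) and than in Gαs KO cells by -0.79 (SE 0.14, edgeR adjusted p = 0.00061). BMAL1 was higher in β-arrestin1/2 KO cells, at 20.7, 20.02 and 17.7 CPM, than in wildtype by 1.01 (SE 0.18, edgeR adjusted p = 0.00042) and than in Gαs KO cells by 0.72 (SE 0.18, edgeR adjusted p = 0.0058). Without wildtype basal replicate 1 the BMAL1 difference from wildtype was 0.75 (SE 0.10, edgeR adjusted p = 1.3e-05). With the compared libraries alone, BHLHE40, NR1D1 and BMAL1 were not called for β-arrestin1/2 KO against wildtype cells. The NR1D1 call against wildtype was also lost without basal replicate 1 of the β-arrestin1/2 KO cells. In the fit of all libraries without GC and length offsets, CRY1, NR1D2 and CLOCK were not called in any of the 3 basal comparisons. CRY1 was not called under any other setting. CLOCK and PER1 were called between the knockout lines with the offsets (6686 of 15530 genes) and with the compared libraries alone (48.2%). Without wildtype basal replicate 2, CLOCK and NR1D2 were called for Gαs KO against wildtype cells (5643 of 15876 genes). NR1D2 was then also called for β-arrestin1/2 KO against wildtype cells (5923 of 15876 genes).

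**Figure D5:**
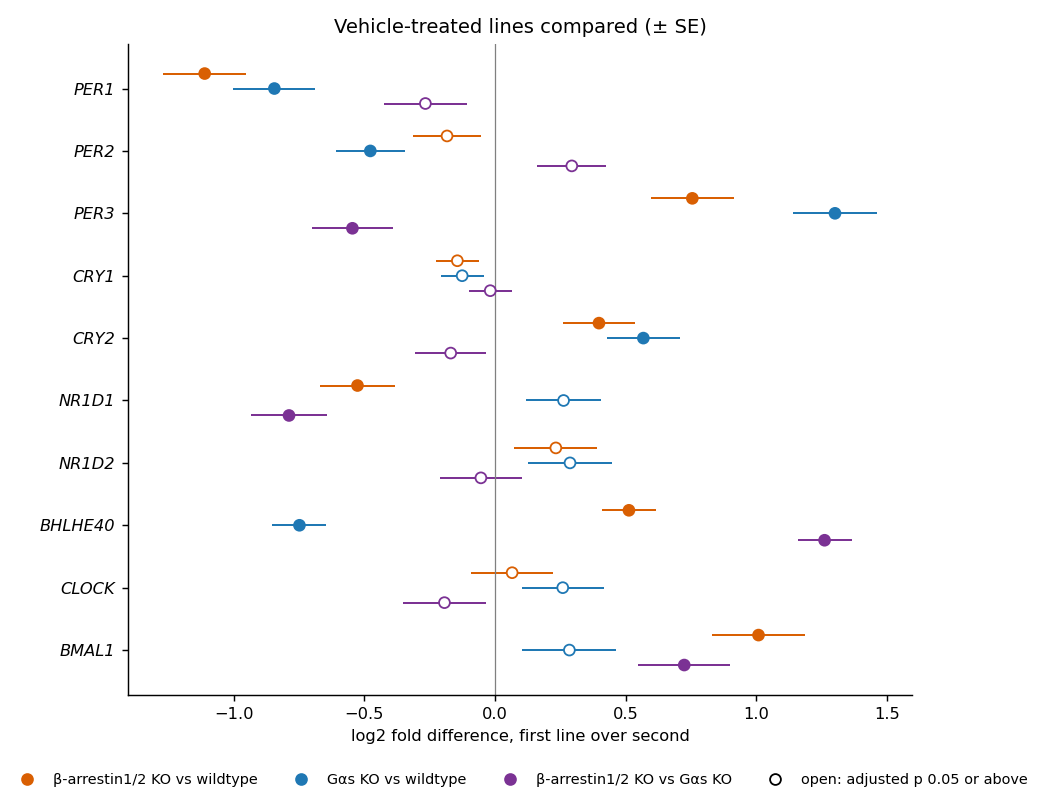
Log2 differences (first line over second, bars ± SE) between the vehicle-treated lines for each clock gene, with filled points for an edgeR adjusted p under 0.05. PER1 lies below 0 and PER3 above 0 in both knockout lines against wildtype, and BHLHE40 ranges from -0.75 (Gαs KO against wildtype) to 1.26 (β-arrestin1/2 KO against Gαs KO).

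Levels between genes were compared per length. The mean TPM over the 6 groups was 42.9 for BHLHE40 and 42.5 for NR1D2, followed by PER1 at 27.2, CRY1 at 23.5 and CRY2 at 19.1. CLOCK at 13.7 and BMAL1 at 13.1 came next, ahead of NR1D1 at 9.33, PER3 at 4.73 and PER2 at 3.63. The order was not the same in all groups: in basal Gαs KO cells NR1D2 stood at 43.4 ± 2.46 TPM (SD, n = 3) and BHLHE40 at 20.4 ± 1.28, and in stimulated β-arrestin1/2 KO cells BHLHE40 stood at 87.3 ± 2.73 and NR1D2 at 50.2 ± 2.48. CLOCK and BMAL1 overlapped over the 18 libraries, at 8.21 to 21.0 and 7.79 to 24.03 TPM. For PER2, NR1D1, NR1D2, CRY1 and BHLHE40 a single transcript held 93.1% to 100% of the counts. CLOCK counts were divided between CLOCK-201 (47.7%) and CLOCK-211 (46.5%), whose estimates varied widely between libraries.

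The genes whose log2 CPM followed PER1 most closely over the 18 libraries were SPATA2L (Pearson r = 0.956), TSPYL2 (0.945), ARC (0.944), NDEL1 (0.944) and SAMD4A (0.941). Their GC contents, in that order, were 67.7%, 55.3%, 66.8%, 50.6% and 48.3%, against 62.7% for PER1. ARC is itself a well-known immediate-early gene, but the isoproterenol responses of these 5 genes are not given here. The points share the 3 lines, the 6 groups and wildtype basal replicate 1, and the values are a description.

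Of a wider list of 23 clock-associated genes, 21 passed the filter on low counts and were tested. With edgeR 1 was called in the wildtype response (0.464% of all genes) and 2 in that of β-arrestin1/2 KO cells (1.13%), all higher. The count was 0 in Gαs KO cells, where 0 had an unadjusted p under 0.05, against 164 of all 15530 genes tested. DESeq2 also called 0 there (0.0335% of all genes). The list's median log2 changes were 0.07, -0.0049 and 0.02. DESeq2 added WEE1, a cell-cycle kinase under clock control, in β-arrestin1/2 KO cells (-0.32, DESeq2 adjusted p = 0.014). NFIL3 (E4BP4), a repressor that shares its D-box sites with the PAR bZIP activators, stood at 15.3, 22.2 and 21.1 CPM in basal wildtype libraries and at 34.7, 34.4 and 32.03 after isoproterenol. Its β-arrestin1/2 KO libraries stood at 13.1, 18.2 and 17.8 and then at 37.1, 37.3 and 38.6. It rose by 0.79 (SE 0.15, edgeR adjusted p = 0.025) and by 1.20 (SE 0.15, edgeR adjusted p = 0.00026) on the log2 scale, and its value was 0.08 in Gαs KO cells. The wildtype value was 0.64 without basal replicate 1 (edgeR adjusted p = 0.026), and the call was lost without any 1 of the 3 stimulated wildtype libraries (0.77 to 0.83) and with the compared libraries alone. USP2, a deubiquitinase of clock proteins, rose in β-arrestin1/2 KO cells, from 7.84, 8.93 and 8.67 to 14.8, 13.4 and 13.1, by 0.70 (SE 0.12, edgeR adjusted p = 0.0034). Its wildtype value was 0.07, with basal libraries at 13.1 to 18.01, and the difference between those responses did not pass with all libraries (0.62, SE 0.16, edgeR adjusted p = 0.25) but did without wildtype basal replicate 1 (0.50, edgeR adjusted p = 0.046). The PAR bZIP outputs DBP, TEF and HLF were not called in any response.

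A list of 11 genes on the route from protein kinase A to CREB had 10 tested; PRKACA was not analysed here. SIK1, a CREB target and a kinase that restrains the CREB coactivators, stood at 9.28, 12.97 and 13.2 in basal and 64.0, 62.3 and 67.4 CPM in stimulated wildtype libraries. The β-arrestin1/2 KO libraries stood at 16.0, 11.9 and 15.9 and then at 132.8, 138.4 and 130.8, and in Gαs KO cells at 12.3, 7.60 and 8.58 and then at 11.0, 9.51 and 11.0. Its response was 5.47-fold in wildtype (log2 2.45, SE 0.17, edgeR adjusted p = 2.2e-07), 9.20-fold in β-arrestin1/2 KO (log2 3.20, SE 0.17, edgeR adjusted p = 3.5e-09) and 1.11-fold in Gαs KO cells (edgeR adjusted p = 1), and the wildtype ratio was 4.94 without basal replicate 1. The β-arrestin1/2 KO minus wildtype difference was 0.75 with all libraries (edgeR adjusted p = 0.39) and 0.90 without that replicate (edgeR adjusted p = 0.014). CREM, whose locus also encodes the inducible repressor ICER, rose by 0.56 (SE 0.11, edgeR adjusted p = 0.012) in β-arrestin1/2 KO cells. That call was lost in 4 of 18 fits with 1 library left out, which gave 0.45 to 0.64 over all 18. It was also lost under 2 other alternatives. In wildtype libraries CREM stood at 42.0 to 47.6 CPM in the basal state and at 59.2 to 66.7 after isoproterenol, without overlap. Such separation was seen in 4.86% of all genes. That wildtype response was not called in the fit of all libraries without GC and length offsets. In Gαs KO cells the ranges overlapped, at 26.1 to 29.5 and 25.6 to 30.5. With edgeR the other 8 tested genes of this list, CREB1, ATF1, PRKACB and the coactivators among them, were not called in any response. SIK1 has a near-identical annotated copy, SIK1B, so its reads could be split between them. In the same wildtype libraries the ratio of stimulated to basal levels was 1.17 for PER1 and 5.47 for SIK1, or 1.43 and 4.94 without basal replicate 1.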

How the data were processed

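The deposited table gives expected counts, which the authors obtained with Salmon (1.7.0, per the labels), for 184844 transcripts in the 18 libraries. The labels name GRCh38, and the transcript annotation is not given in the sources used here. Transcripts were joined to GENCODE 29 by identifier (161838 matched, keeping 92.9% to 93.8% of each library's counts) and summed per gene, then rounded. The main test was edgeR 4.0.16 (TMM, filterByExpr, quasi-likelihood F test) on all 18 libraries with 1 coefficient per group. P-values were adjusted by Benjamini-Hochberg over 15530 genes and called under 0.05. SE denotes the standard error of the log2 fold change. TPM was computed from counts and annotated lengths. Replicates are biological per the labels. The alternatives were DESeq2 1.42.0, other scalings and filters, a replicate block, GC and length offsets (lowess span 0.3), protein-coding transcripts and each library left out. The fit was also run on simulated counts with set changes in the stimulated wildtype group. All simulated libraries shared a common expression profile and none deviated in GC content. That run therefore cannot show how the fit behaves with a library such as wildtype basal replicate 1. The members, the other lists, the genes named in the text (all members, the called genes of the lists and the 5 nearest to PER1) and the tests were chosen with earlier results of these data known. BHLHE40's sequence was chosen after its values were seen.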

Additional observations from a re-analysis of the deposited data

Results flagged for a closer look

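The responses of 3 genes differed between lines by a test of the difference itself. The BHLHE40 response was larger in β-arrestin1/2 KO than in Gαs KO cells by 0.69 on the log2 scale (edgeR adjusted p = 0.049), with all 3 stimulated libraries above the basal ones in the former and overlapping groups in the latter. That call was lost in 15 of 18 fits with 1 library left out (all but those without a wildtype basal replicate) and under 6 other alternatives. The NFIL3 response was larger in β-arrestin1/2 KO than in Gαs KO cells by 1.123 (edgeR adjusted p = 0.030), a call lost in 11 of 18 fits with 1 library left out, which gave 0.98 to 1.20, and at a threshold of 0.01. The SIK1 response was lower in Gαs KO than in wildtype cells, with a log2 difference of -2.30 (edgeR adjusted p = 8.6e-05), and larger in β-arrestin1/2 KO than in Gαs KO cells by 3.05 (edgeR adjusted p = 1.3e-06). The PER1 differences did not pass in the fit of all libraries without GC and length offsets. Groups of 3 libraries were not screened for single deviating values.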

How the results depend on the processing

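Members called in wildtype cells numbered 0 (0.464% of all genes), but 1 with DESeq2's Wald test (1.19%). They numbered 2 with GC and length offsets (1.46%), also with the replicate block added (213 of 15530 genes). With 1 library left out they numbered 0 to 2, with 2 only without wildtype basal replicate 1 (1.11%). In β-arrestin1/2 KO cells the count of 1 (1.13% of all genes) became 3 with the compared libraries alone (7.93%). It became 2 with the offsets (2.43%), also with the block (371 of 15530 genes). With 1 library left out it was 1 to 3. It was 3 without wildtype basal replicate 1 (11.7%) and 2 without wildtype basal replicate 2 (205 of 15876 genes). In Gαs KO cells it stayed 0 under every setting run, where edgeR called 0.0% of all genes and DESeq2 0.0335%. For β-arrestin1/2 KO minus Gαs KO the count was 1, with 63 of 15530 genes called (0.406%). It became 0 with DESeq2's size factors (62 genes called), upper-quartile scaling (56) or all genes with at least 1 count (54). It was also 0 with protein-coding transcripts (61), the replicate block (59) or an adjusted p under 0.01. It became 2 with the compared libraries alone (3.73% of all genes) or the offsets (0.914%), also with the block (135 of 15530 genes). With 1 library left out it was 0 to 2. It was 0 in 15 of 18 such fits, where 44 to 62 of all genes were called. The 2 differences from wildtype gave 0 to 1 with 1 library left out. Without wildtype basal replicate 1 each gave 1: NR1D2 for β-arrestin1/2 KO (8.24% of all genes) and BHLHE40 for Gαs KO (0.412%). Basal counts of 6, 5 and 4 (33.5%, 31.3% and 26.2% of all genes) became 2, 2 and 7 with the compared libraries alone. The shares of all genes there were 10.3%, 10.8% and 48.2%. The last count became 7 with the offsets and the block, against 42.9% of all genes. With 1 library left out the counts were 4 to 6, 4 to 7 and 3 to 5. In those fits 4104 to 7378, 3700 to 7241 and 3070 to 7141 of all 15785 to 15876 genes tested were called.

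PER1 passed in wildtype cells with the offsets (0.41, and 0.41 with the block), in β-arrestin1/2 KO cells with the compared libraries alone (0.55) and the offsets (0.71, and 0.71 with the block), and in their difference from Gαs KO with the compared libraries alone (0.58) and the offsets (0.74, and 0.74 with the block). With 1 library left out PER1 ran from 0.053 to 0.51 in wildtype, 0.49 to 0.64 in β-arrestin1/2 KO (passing also without wildtype basal replicate 2) and -0.061 to 0.0024 in Gαs KO cells (above 0 without Gαs KO basal replicate 1), and from 0.04 to 0.49, -0.55 to -0.09 and 0.52 to 0.67 in the differences β-arrestin1/2 KO minus wildtype, Gαs KO minus wildtype and β-arrestin1/2 KO minus Gαs KO. Its wildtype ratio was 1.17 in CPM against 1.61 in TPM. Same-numbered replicates of different groups correlated by -0.099 to 0.077 once group means were taken out, so no shared replicate effect was seen. The labels do not say whether same-numbered libraries were handled together. Besides the count above, the replicate block ended the BHLHE40 difference for β-arrestin1/2 KO minus Gαs KO (0.69, edgeR adjusted p = 0.065) and no other call. The cause of these changes was not tested.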
